A study of Homo sapiens with 4 samples.

Results

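HCEC 1CT is a line of human colonic epithelium made immortal by adding TERT and CDK4. Single-cell RNA sequencing of it was examined for 9 genes whose products hold back the cell cycle: the CIP/KIP inhibitors CDKN1A, CDKN1B and CDKN1C, the INK4 inhibitors CDKN2A, CDKN2B and CDKN2C, and the stress genes GADD45A, GADD45B and GADD45G. They were taken by symbol, each matched 1 row, and they are 9 of the 33538 genes in the files. Cells carried a short hairpin RNA against APC (shAPC) or a scrambled hairpin (shScr), were kept under puromycin after viral transduction, and were harvested at day 3 or day 7, which gave 4 libraries, 1 for each hairpin and day. All 4 groups share the immortalised background, the vector, the drug and the medium with EGF, insulin, hydrocortisone and serum. Only 1 hairpin sequence against APC was used, so an effect of APC and one of that sequence cannot be told apart, and neither can a group and its library.

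Cyclin-dependent kinases (CDKs) drive a cell from one phase of its cycle to the next. CIP/KIP proteins (p21 from CDKN1A, p27 from CDKN1B, p57 from CDKN1C) bind CDK2 and related complexes, INK4 proteins (p16 from CDKN2A, p15 from CDKN2B, p18 from CDKN2C) bind CDK4 and CDK6 alone, and CDKN2A also encodes p14ARF, which restrains MDM2. CDKN1A is raised by DNA damage, CDKN2B is a classical TGF-beta target, and GADD45 proteins are small stress-induced partners of MAP3K4, PCNA and CDK1 that are raised by DNA damage and by the unfolded protein response. A line that carries extra CDK4 can divide in the presence of p16, which is how such epithelial lines are usually established.

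The 9 genes lie on 6 chromosomes of GRCh38 in GENCODE 44. CDKN2A (chr9:21967752-21995301, minus strand) and CDKN2B (chr9:22002903-22009305, minus strand) are neighbours, and the antisense RNA CDKN2B-AS1 (chr9:21994139-22128103, plus strand) runs across CDKN2B and the 5' end of CDKN2A. GADD45G is on the same chromosome (chr9:89605012-89606555), GADD45A (chr1:67685201-67688334) and CDKN2C (chr1:50960745-50974634) are on chromosome 1, CDKN1A is at chr6:36676460-36687337, CDKN1C at chr11:2883213-2885775, CDKN1B at chr12:12685498-12722369 and GADD45B at chr19:2476122-2478259. RefSeq start sites on GRCh38.p14 were at hand for 7 of the 9 genes, and GADD45A and CDKN1C had none. The 250 bases before 4 of these starts are printed 5' to 3' on the gene's strand: those of GADD45B and GADD45G because both genes were about 4-fold higher in shAPC at day 3, and both starts of CDKN2A because the files merge the transcripts that begin there. Capitals mark matches on either strand to any of 5 motifs. These were the TATA box, searched as TATANAA, the CAAT box, searched as CCAAT, and the GC box, searched as GGGCGG. The others were the E-box, searched as CACGTG, and the composite element of C/EBP and ATF factors, searched as TGATGNAA. TGACGTCA (a cyclic AMP element) and TGANTCA (an AP-1 site) were searched too, and the 7 motifs were chosen with these sequences in view.
GADD45B, chr19:2475877-2476126, plus strand: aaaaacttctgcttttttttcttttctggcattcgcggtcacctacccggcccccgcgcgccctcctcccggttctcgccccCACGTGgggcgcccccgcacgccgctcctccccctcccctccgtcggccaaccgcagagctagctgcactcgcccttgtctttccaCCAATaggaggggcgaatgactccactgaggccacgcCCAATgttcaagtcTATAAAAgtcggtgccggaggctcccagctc
GADD45G, chr9:89604762-89605011, plus strand: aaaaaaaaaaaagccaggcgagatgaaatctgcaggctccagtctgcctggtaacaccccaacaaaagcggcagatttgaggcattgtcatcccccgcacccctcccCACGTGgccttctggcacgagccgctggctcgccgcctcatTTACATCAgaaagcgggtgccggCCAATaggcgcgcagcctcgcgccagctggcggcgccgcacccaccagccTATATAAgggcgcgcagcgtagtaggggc
CDKN2A, p14ARF start, chr9:21995325-21995574, minus strand: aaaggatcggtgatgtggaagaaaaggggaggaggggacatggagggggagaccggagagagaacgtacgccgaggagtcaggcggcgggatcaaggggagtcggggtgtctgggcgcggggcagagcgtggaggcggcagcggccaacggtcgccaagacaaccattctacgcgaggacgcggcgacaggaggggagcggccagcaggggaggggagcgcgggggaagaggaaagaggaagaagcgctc
CDKN2A, p16INK4A start, chr9:21974858-21975107, minus strand: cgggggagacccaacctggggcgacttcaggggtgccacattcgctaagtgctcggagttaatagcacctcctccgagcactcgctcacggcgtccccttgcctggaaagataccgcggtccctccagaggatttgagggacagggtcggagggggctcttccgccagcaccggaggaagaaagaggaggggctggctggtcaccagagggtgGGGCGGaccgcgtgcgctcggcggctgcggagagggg

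The GADD45B and GADD45G windows had the same series of motifs. A TATANAA match began 31 and 29 bases before the start, a CCAAT match 45 and 82 bases before it in GADD45B and 79 bases before it in GADD45G, and a CACGTG match 168 and 143 bases before it. Of 35116 RefSeq windows of the same length, 8.41% held TATANAA, 32.0% CCAAT and 6.34% CACGTG. GADD45G also had 1 match to TGATGNAA, on the opposite strand 102 bases before the start, which 3.14% of windows held, and neither window had TGACGTCA (1.65%) or TGANTCA (6.57%). Before the p16INK4A start of CDKN2A there was 1 GGGCGG match (42.6% of windows), and before the p14ARF start there was none of the 7. Among the 10 windows searched for 7 members, TATANAA also stood before CDKN1A (opposite strand), CCAAT before CDKN1B and CDKN2C, and CACGTG before CDKN2C. GGGCGG also stood before CDKN1A, CDKN1B, CDKN2B and CDKN2C. These matches are letters in the window and were not read as binding.

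Barcodes with at least 200 genes, 500 UMIs (unique molecular identifiers, 1 per captured RNA molecule) and under 5% mitochondrial UMIs were kept, which left 1116 (shScr) and 788 (shAPC) cells at day 3 and 2600 (shScr) and 1478 (shAPC) cells at day 7, and values in groups of 4 below follow that order. The libraries differed in ways the hairpins do not name: the median kept cell held 35109, 49685.5, 1330 and 21029.5 UMIs, the mitochondrial limit removed 51.3% of barcodes from shAPC day 7 and 24.1 to 28.8% from the other libraries, and the matrix headers name Cell Ranger 3.0.2 for shScr and 3.0.0 for shAPC. Between 1 and 19 kept barcodes were shared by any 2 libraries, most of them within day 3. APC itself was at 16.1, 5.52, 19.1 and 6.61 CPM (a gene's UMIs divided by the library total and multiplied by 1000000), 2.91-fold and 2.89-fold lower in shAPC at the 2 days. The defining markers of the epithelial label were largely absent: 7 or 8 of 12 epithelial markers, EPCAM and CDH1 among them, had at most 3 UMIs in each library, KRT8 led the rest at 9.57 to 19.4 CPM, and 12 mesenchymal markers summed to 8761 to 11320 CPM. Immune and endothelial markers summed to under 1 CPM in each library. With 1 library per group no test between groups was run: intervals are 95% and cover counting error only, and the spread between cultures was not measured. No cell type that should lack these genes was sequenced, so the share of cells with a UMI from free RNA was not measured either.

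CDKN1A was the most abundant of the 9 in every library, at 516, 639, 539 and 649.6 CPM. CDKN2A was next in 3 libraries at 385, 416 and 270.5 CPM. In shAPC day 3 GADD45A stood at 462 CPM (interval 455 to 469) and CDKN2A at 455 CPM (448 to 462), so their order was within counting error. GADD45B followed, and the 5 others stayed at 15.6 CPM or below in all libraries, with CDKN1C and GADD45G under 5 CPM. Each UMI stands for 1 molecule primed at its poly(A) end, so these levels are not scaled by length.

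**Figure D1:**
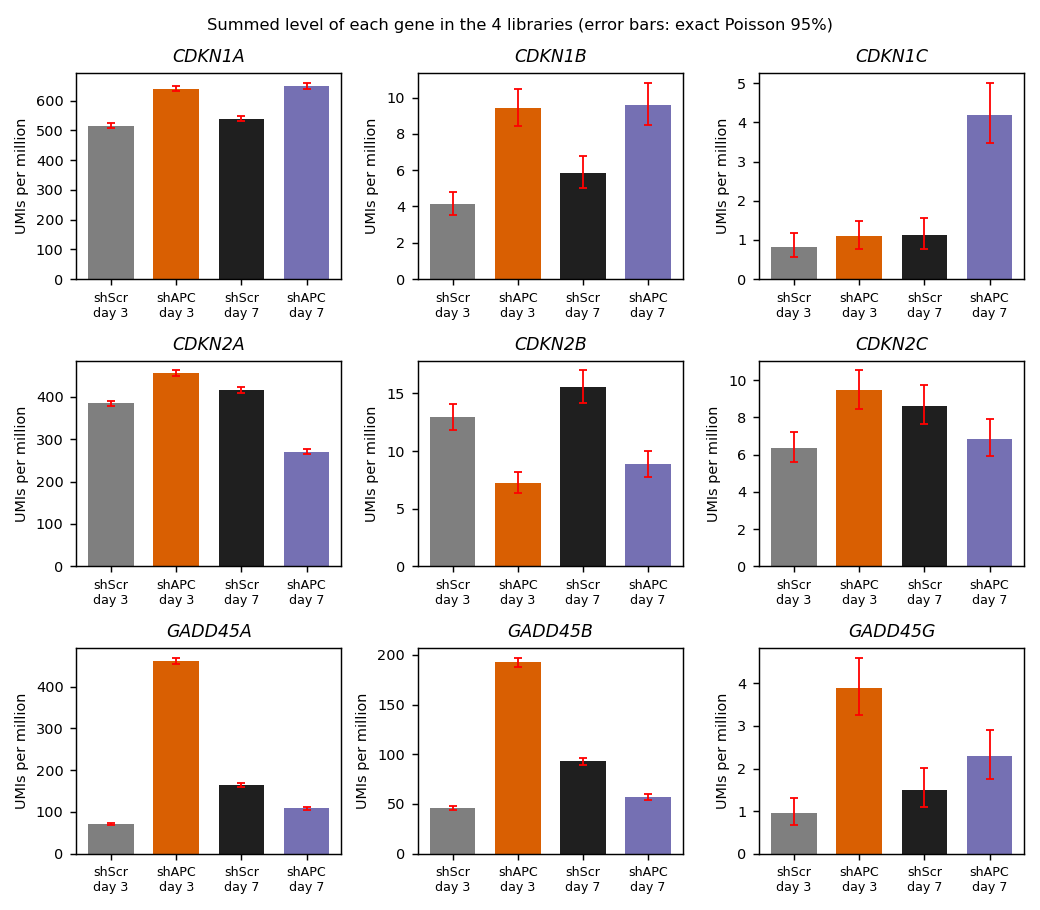
Bars give the level in CPM (linear axis from 0, 1 scale per gene) of the 9 genes in the 4 libraries, and error bars the exact Poisson 95% interval. GADD45A and GADD45B stand highest in shAPC day 3 (462 and 193 CPM), CDKN1C in shAPC day 7 (4.18 CPM), and CDKN2B is lower in shAPC than in shScr at both days.

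The summed level of the 9 genes was 1043, 1780, 1244 and 1117 CPM, so the difference of shAPC from shScr was 736 CPM at day 3 and -127 CPM at day 7. GADD45A made up 53% of the day 3 difference, GADD45B 19.9%, CDKN1A 16.7% and CDKN2A 9.55%, and each of the other 5 genes contributed under 1%. At day 7 the difference was a balance of opposite parts: it was -145 CPM for CDKN2A, -55.2 CPM for GADD45A and -36.1 CPM for GADD45B, but 110.5 CPM for CDKN1A. The day 3 excess was therefore mostly GADD45 RNA, and the day 7 deficit mostly CDKN2A.

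Among members that reached 20 CPM under either hairpin, 2 of 4 (GADD45A and GADD45B) were at least 2-fold higher in shAPC at day 3 on log2(CPM + 1), where 200 of the 5175 genes at that level were (3.86%). None was 2-fold lower, against 22 of all genes (0.425%). The median gene was itself 0.28 higher in shAPC on the log2 scale at day 3, and measured from that median the same 2 members were higher (2.13% of genes) and 0 lower (0.87%). At day 7 the median gene differed by -0.10, and 0 of 4 members were 2-fold higher (0.787% of 4573 genes) or lower (1.77%). Measured from the day 7 median the counts were again 0 higher (1.01%) and 0 lower (1.27%).

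**Figure D2:**
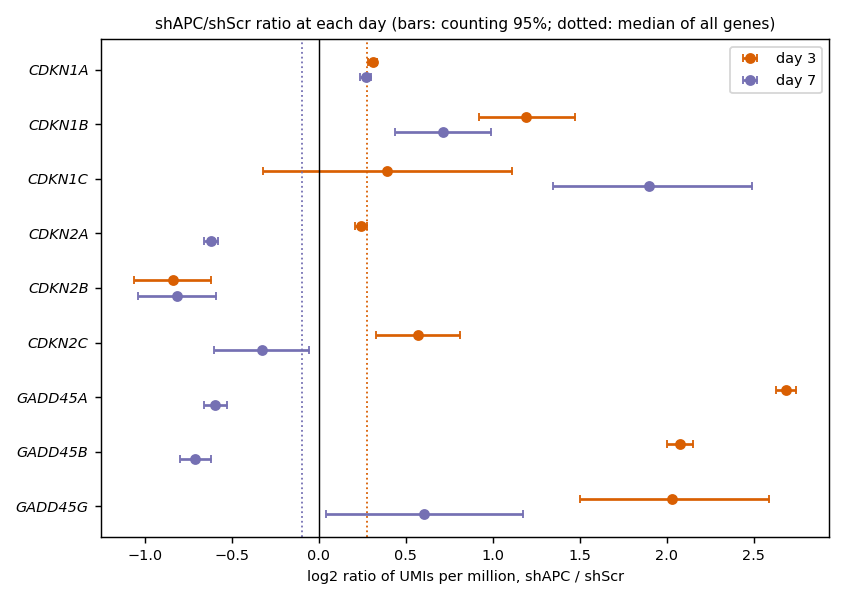
Points give the log2 ratio of CPM, shAPC over shScr, for the 9 genes at day 3 (orange) and day 7 (purple), bars the exact 95% counting interval, and dotted lines the median of all genes at each day (0.28 and -0.10). GADD45A and GADD45B lie far right at day 3 (2.69 and 2.08) and left of 0 at day 7 (-0.59 and -0.71), while CDKN2B lies left at both days.

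Among the CIP/KIP genes, CDKN1A, which encodes p21, differed little between hairpins. Its level of 639 against 516 CPM at day 3 was a log2 ratio of 0.31 (0.28 to 0.34), which is 0.03 measured from the median of all genes, and turned to -0.07 with TMM scaling, a trimmed mean over genes. At day 7, 649.6 against 539 CPM was a log2 ratio of 0.27 (0.24 to 0.30), and 0.26 with TMM. Nearly every deep cell held the RNA: of cells with at least 10000 UMIs, 0.69 to 2.07% had none. The median such cell had 3.93, 4.06, 3.79 and 5.49 UMIs of CDKN1A per 10000, so the typical cell matched its control at day 3 and exceeded it at day 7.

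The spread over cells set the days apart further. In cells thinned to 2000 UMIs, so that depth was equal, 54.5% (51.2 to 57.8), 53.5% (49.6 to 57.3), 53.4% (50.5 to 56.3) and 64.9% (61.9 to 67.7) held a CDKN1A UMI. Unthinned, the shares were 80.5, 85.2, 60.8 and 80.3%, which follow the depth of the libraries. At day 3 the excess sat in the upper tail. The 95th percentile of deep cells was 16.8 UMIs per 10000 in shAPC and 13.1 in shScr, and a single shAPC cell held 644 CDKN1A UMIs. Cells were also ranked by the share of the gene in their own UMIs. Without the top 5% in each library the log2 ratio dropped to 0.11. At day 7 it was 0.30 without those cells.

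CDKN1B, which encodes p27, was scarce, at 4.12, 9.41, 5.86 and 9.60 CPM. It was 2.28-fold (1.89 to 2.77) higher in shAPC at day 3 and 1.64-fold (1.35 to 1.99) higher at day 7, and measured from the median gene the log2 ratios were 0.92 and 0.81. The RNA was thinly spread, with 5 UMIs or fewer in any cell. CDKN1C, which encodes p57 and is imprinted in many tissues, had 33, 38, 35 and 119 UMIs in all, or 0.83, 1.09, 1.12 and 4.18 CPM. Its day 3 ratio covered no difference (log2 0.39, -0.32 to 1.11), whereas at day 7 it was 3.73-fold (2.54 to 5.61) higher in shAPC. Those 119 UMIs came from 91 of 1478 cells (6.16%), against 32 of 2600 cells (1.23%) in shScr day 7, and among thinned cells from 16 of 1087 (1.47%) against 3 of 1198 (0.25%). Within shAPC CDKN1C was 3.85-fold higher at day 7 than at day 3, and within shScr 1.35-fold (0.82 to 2.24).

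Of the INK4 genes, CDKN2A gave the clearest day 7 difference. It stood at 385, 455, 416 and 270.5 CPM, so shAPC day 7 was the lowest of the 4 libraries. The day 3 log2 ratio was 0.24 (0.21 to 0.27), just under the median gene, and -0.14 with TMM. At day 7 shAPC was 1.54-fold lower (log2 -0.62, -0.66 to -0.58), and the ratio was -0.63 with TMM.

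The lower CDKN2A level at day 7 lay in most of the cells. The median deep cell had 3.62, 4.07, 3.32 and 2.16 UMIs per 10000, and in thinned cells the share with a UMI was 53.8, 60.8, 54.3 and 40.8% (37.9 to 43.8). Cells were also ranked by the share of CDKN2A in their own UMIs. Leaving out the top 20% moved the day 7 log2 ratio from -0.62 to -0.76. Without them 11289 of 12978 CDKN2A UMIs remained in shScr and 5672 of 7696 in shAPC. The cells left out thus held a minor part of the gene's UMIs, and the ratio does not show how many cells carried the difference. Unthinned shares ran the other way at day 7 (64.2% in shScr and 79.97% in shAPC), as did the depth. CDKN2A was relatively more abundant in shallow cells: below 2000 genes it stood at 675, 771, 680 and 593 CPM, and the day 7 log2 ratio there was -0.20 (-0.33 to -0.07), against -0.62 in cells from 2000 genes. The row holds p16INK4A and p14ARF transcripts together, which share their 3' exons, so the 2 products could not be separated.

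CDKN2B, which encodes p15, was lower in shAPC at both days, at 12.9 against 7.24 CPM and 15.6 against 8.86 CPM for shScr and shAPC. The log2 ratios of -0.84 (-1.06 to -0.62) and -0.81 (-1.04 to -0.59) differed by 0.02 (-0.28 to 0.33). Measured from the median gene they were -1.11 and -0.72, a difference of 0.40. Of the 9 genes it was the only one whose intervals lay below 0 at both days. CDKN2B-AS1, which overlaps it on the other strand, had 24, 31, 27 and 30 UMIs, beside 515, 253, 486 and 252 UMIs of CDKN2B. Whether the counting used strand is not given in the sources used here.

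CDKN2C, which encodes p18, stood at 6.36, 9.44, 8.61 and 6.85 CPM. It was 1.49-fold (1.26 to 1.76) higher in shAPC at day 3 and 1.26-fold lower at day 7 (log2 -0.33, -0.60 to -0.06). With TMM the day 3 log2 ratio went from 0.57 to 0.19 (-0.05 to 0.43), an interval that holds 0. At day 7 the mean over cells of CPM, in which each cell weighs the same, gave 0.18 instead, so the day 7 direction depended on how cells were weighted. In shAPC day 3 a single cell held 27 of the 330 CDKN2C UMIs.

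GADD45A, a stress-induced gene regulated by ATF4 and CHOP, differed most. Its levels were 71.8, 462, 163 and 108 CPM, so it was 6.43-fold (6.18 to 6.70) higher in shAPC at day 3 and 1.51-fold lower at day 7. Over time it was 2.28-fold higher at day 7 than at day 3 within shScr and 4.27-fold lower within shAPC. GADD45B, its paralogue, followed the same course at 45.6, 193, 92.9 and 56.8 CPM, with shAPC 4.22-fold (4.00 to 4.45) higher at day 3 and 1.64-fold lower at day 7. GADD45G was rare, at 0.95, 3.89, 1.5 and 2.28 CPM, and was 4.08-fold (2.83 to 6.0) higher in shAPC at day 3 and 1.52-fold (1.03 to 2.26) at day 7. In cells thinned to 2000 UMIs the day 7 ratio turned to -0.86 on the log2 scale, where 2 cells of shScr and 1 of shAPC held a UMI. Of its 136 UMIs in shAPC day 3, 20 came from 1 cell.

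Few cells carried the GADD45A excess. Cells were ranked here by their UMIs of the gene. In shScr day 3, 148 of 1116 cells (13.3%) held 50% of the GADD45A UMIs, whereas in shAPC day 3 20 of 788 cells (2.54%) did. At day 7 it was 21 of 2600 (0.81%) in shScr and 49 of 1478 (3.32%) in shAPC, so a few rich cells were present in the control library as well. For GADD45B 152, 29, 78 and 119 cells held 50%, similar to GADD45A at day 3 and more cells than GADD45A at day 7. For CDKN2A the numbers were 236, 162, 272 and 254 cells, fewer than the 263, 216, 366 and 360 cells that held 50% of all UMIs.

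**Figure D3:**
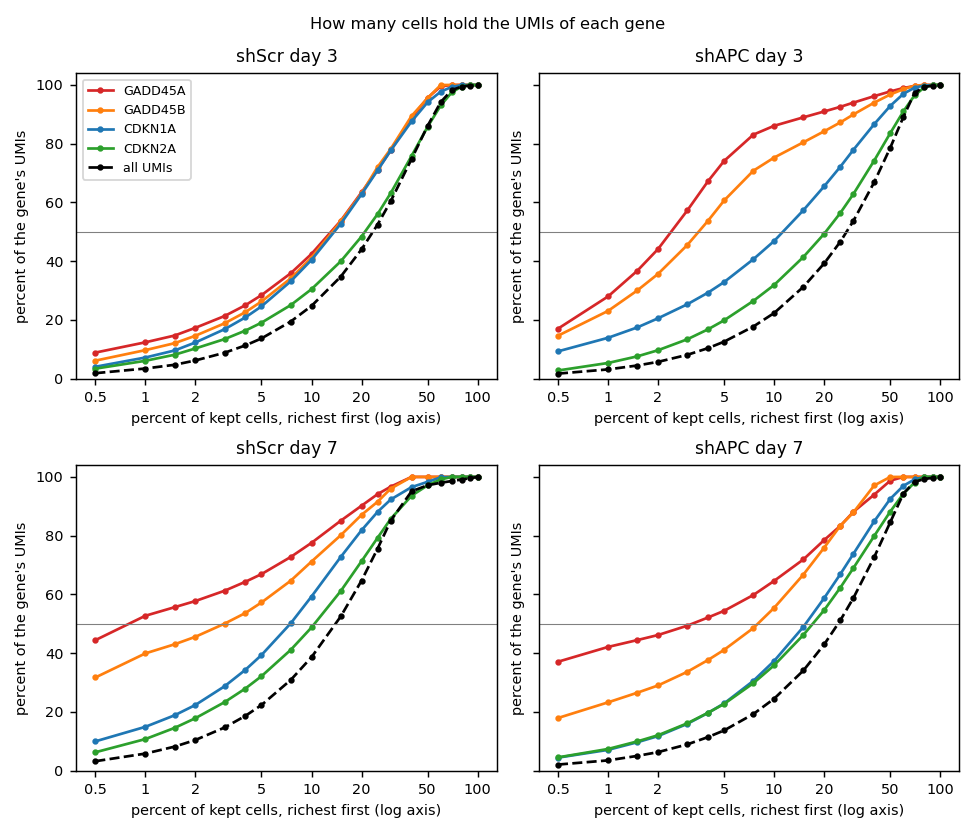
Each panel is 1 library. The x axis (log scale) gives the percent of kept cells, taken from those with the most UMIs of the gene down. The y axis gives the percent of the UMIs of GADD45A, GADD45B, CDKN1A, CDKN2A or of all genes (dashed) that they hold. The richest 5% of cells hold 28.4, 74.1, 66.9 and 54.4% of GADD45A UMIs in the 4 panels from top left to bottom right. For CDKN2A it is 19.0, 19.8, 32.1 and 22.7%, nearer to the dashed line, where it is 13.7, 12.6, 22.3 and 13.7%.

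The typical cell moved much less than the sum. In deep cells the median was 0.57, 0.77, 0.68 and 0.52 GADD45A UMIs per 10000, while the 95th percentile was 1.68, 19.4, 2.74 and 2.03. At equal depth of 2000 UMIs, 12.7% (10.6 to 15.03), 22.9% (19.8 to 26.3), 16.6% (14.6 to 18.8) and 12.4% (10.5 to 14.5) of cells held a GADD45A UMI, and 2 of 899, 43 of 673, 25 of 1198 and 14 of 1087 held 3 or more. For GADD45B the shares with a UMI were 8.79, 20.1, 13.6 and 9.66%. Unthinned, 61.2, 76.9, 36.5 and 52.6% of cells held GADD45A and 57.3, 72.2, 34.4 and 43.2% held GADD45B, so at day 7 the unthinned shares were higher in shAPC and the equal-depth shares lower.

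Cells were then ranked by the share of the gene in their own UMIs, not by its UMIs as in the counts of cells above. Leaving out those highest in GADD45A, the same percentage in both libraries, lowered the day 3 log2 ratio from 2.69. It was 2.48 without 1% of cells, 1.53 without 5%, 0.88 without 10% and 0.70 without 20%. The last value, from 71.7 and 44.2 CPM, was still above the 0.28 of the median gene. For GADD45B it went from 2.08 to 1.26 without 10% and 0.94 without 20%. At day 7 the GADD45A ratio went from -0.59 to -0.29 without 10% and -0.02 (-0.16 to 0.12) without 20%, and that of GADD45B from -0.71 to -0.18 (-0.37 to 0.00). These cells were left out by the level of the gene itself, so the values describe how the sums were made up. Among deep cells the day 7 median was lower in shAPC for both genes, at 0.52 against 0.68 UMIs per 10000 for GADD45A and 0.37 against 0.44 for GADD45B.

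**Figure D4:**
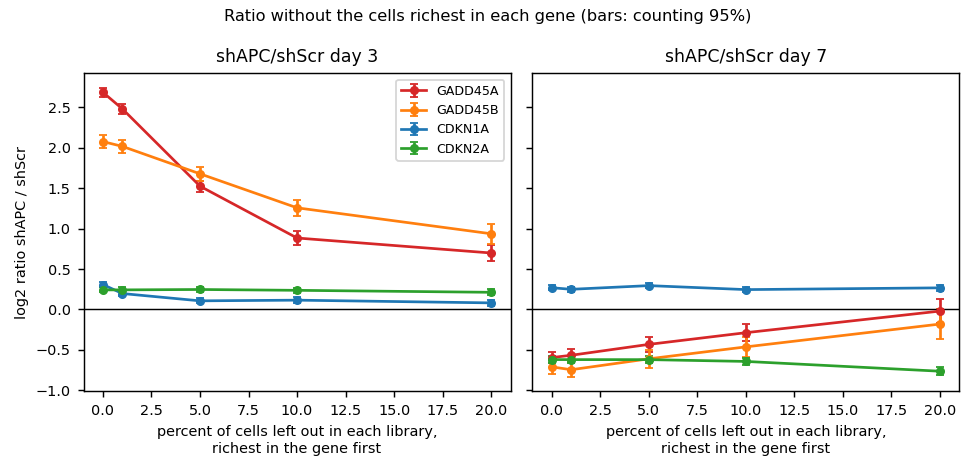
Lines give the log2 ratio shAPC over shScr at day 3 and day 7 after leaving out 0, 1, 5, 10 or 20% of cells in each library, richest in the gene first, with 95% counting intervals. GADD45A goes from 2.69 to 0.70 at day 3 and from -0.59 to -0.02 at day 7, while CDKN2A stays between 0.21 and 0.25 at day 3 and between -0.62 and -0.76 at day 7.

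Cells rich in GADD45A held other genes of the stress response more often. Of the 43 shAPC day 3 cells with 3 or more GADD45A UMIs at equal depth, 28 (65.1%) held GADD45B, 33 (76.7%) DDIT3, which encodes the stress factor CHOP, and 15 (34.9%) ATF3. Of the 519 cells without GADD45A the shares were 13.1, 4.43 and 0.77%. CDKN1A averaged 3.49 UMIs in the former and 0.87 in the latter, and CDKN2A 1.09 and 0.96. Of the 25 such cells of shScr day 7, 18 (72.0%) held GADD45B, 14 (56.0%) DDIT3 and 11 (44%) ATF3. Of the 14 such cells of shAPC day 7, 7 held GADD45B, 6 (42.9%) DDIT3 and 1 (7.14%) ATF3. TOP2A, a marker of dividing cells, had no UMI at this depth in the 43 cells or the 25, which allows shares of cells with a UMI of up to 8.22% and 13.7% (exact 95% limits), against 16.0% and 9.61% of the cells without GADD45A. With cells thinned to 5000 UMIs, 4 of 71 (5.63%) and 4 of 39 (10.3%) cells with 3 or more GADD45A UMIs held TOP2A, against 23.7% and 15.7% of the cells without. In shScr day 3 and shAPC day 7 the shares ran the other way. There 2 of 7 (28.6%, 3.67 to 71.0) and 3 of 20 (15%, 3.21 to 37.9) such cells held TOP2A, against 17.1% and 11.7%.

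The barcodes removed for their mitochondrial share did not show the day 3 difference of GADD45A. In them it stood at 71.4 CPM in shScr and 70.1 CPM in shAPC (log2 -0.03, -0.24 to 0.19), and GADD45B at 39.9 and 67.4 CPM (0.75, 0.50 to 1.01). CDKN1A was lower in the removed barcodes of shAPC at day 3 (588 against 779 CPM, log2 -0.41) and higher at day 7 (868 against 726 CPM, 0.26). For CDKN2A at day 7 the ratio was -0.57 in removed and -0.62 in kept barcodes, and for CDKN2B -0.94 and -0.81. Among kept cells under 2000 genes the day 3 ratio of GADD45A was 1.64 (1.15 to 2.14), from 108 and 54 UMIs. The part of dying or damaged cells in these values was not tested.

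Cell cycle phase was called on cells thinned to 2000 UMIs from lists of 43 S and 54 G2M genes that hold none of the 9. It placed 5.78, 8.92, 6.76 and 8.37% of cells in S and 18.4, 18.6, 20.1 and 15.4% in G2M. The calls are cuts of a continuous score, and 20.2 to 32.9% of cells lay within 0.05 of the cut. CDKN2C followed the phase most closely. In cells called neither S nor G2M it stood at 2.34, 4.20, 3.47 and 3.43 CPM, and in G2M at 24.2, 26.6, 27.2 and 22.4 CPM, a log2 ratio of 3.37, 2.67, 2.97 and 2.70. In S it stood at 12.7, 22.8, 18.8 and 12.1 CPM.

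CDKN2B and CDKN1A ran the other way. CDKN2B in G2M was below the other cells in all 4 libraries, with log2 ratios of -1.03, -1.47, -1.75 and -0.89, and so was CDKN1A with -0.50, -0.52, -0.88 and -0.27. CDKN2A was slightly higher in G2M, at 447 against 370 CPM, 464 against 444, 521 against 375 and 318 against 255. GADD45A in G2M matched the other cells in shScr day 3 (71.4 and 73.0 CPM) but was lower than them in the 3 other libraries, at 214 and 525 CPM in shAPC day 3, 91.8 and 188 CPM in shScr day 7 and 92.2 and 114 CPM in shAPC day 7.

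**Figure D5:**
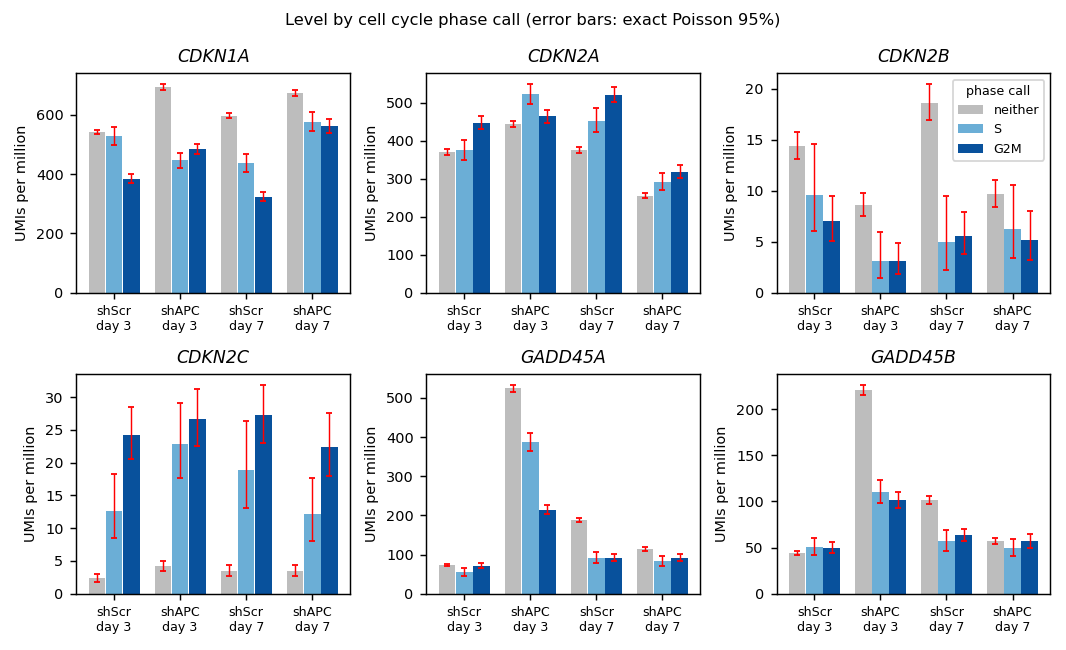
Bars give CPM of 6 members in cells called neither S nor G2M (grey), S (light blue) and G2M (dark blue) in the 4 libraries, on linear axes from 0 with exact Poisson 95% intervals. CDKN2C is highest in G2M in each library (22.4 to 27.2 CPM), while CDKN1A and CDKN2B are lower there than in the grey cells.

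The differences between the hairpins were also computed within each phase. At day 3 GADD45A had a log2 ratio of 2.85 in cells called neither, 2.81 in S and 1.58 in G2M, and GADD45B 2.33, 1.13 and 1.02. At day 7 the GADD45A ratio was -0.73 (-0.80 to -0.66) in cells called neither, -0.15 (-0.46 to 0.16) in S and 0.01 (-0.19 to 0.20) in G2M, and that of GADD45B -0.82, -0.21 (-0.61 to 0.19) and -0.16 (-0.40 to 0.08). CDKN2A at day 7 was lower in each class, with -0.55, -0.63 and -0.71. CDKN1A at day 3 had 0.36 in cells called neither and 0.33 in G2M but -0.24 (-0.36 to -0.13) in S. At day 7 it was higher by 0.17 in cells called neither and by 0.79 in G2M, where it stood at 561 CPM in shAPC and 325 in shScr. CDKN2B at day 3 was lower in each class, and at day 7 it had -0.94 (-1.19 to -0.70) in cells called neither, 0.34 (-0.98 to 1.72) in S and -0.09 (-0.96 to 0.76) in G2M, from 14 and 9 and from 21 and 31 UMIs in the last classes. CDKN2C at day 3 had 0.84 (0.40 to 1.29) in cells called neither and 0.14 (-0.20 to 0.47) in G2M.

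Within each library, the genes that varied most like a member were ranked by Pearson's r over cells of at least 10000 UMIs (765, 576, 919 and 927 cells) among 5300 genes, on log2(UMIs per 10000 + 1), and averaged over the 4 libraries. These r values share each cell's depth and are descriptions. CDKN1A varied most like MDM2, which encodes a ubiquitin ligase, at a mean r of 0.48 (0.49, 0.58, 0.44 and 0.42), then ZMAT3 (0.38) and STOM (0.36). GADD45A varied most like DDIT3 (mean 0.53, with 0.28, 0.87, 0.57 and 0.42), SNHG12 (0.49) and PPP1R15A (0.48), which encodes the stress phosphatase subunit GADD34. GADD45B varied most like GADD45A (0.44), DDIT3 (0.40) and RSRC2 (0.37). CDKN2A varied most like PFN1 (0.62), SLIRP (0.58) and S100A11 (0.58), and its r with CDKN1A was -0.25, -0.04, -0.30 and -0.14. With GADD45A its r was -0.02, 0.29, 0.21 and 0.11, and with GADD45B 0.07, 0.26, 0.24 and 0.13.

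The other genes of these pathways are given by the lists, on log2(CPM + 1) and for genes of at least 20 CPM. Of the GADD45 partners and stress factors, 5 of 9 were 2-fold higher in shAPC at day 3 and 0 lower (3.86% and 0.425% of all genes), with a median of 1.5 beside 0.28 for all genes: ATF3 stood at 1.03 and 44.7 CPM and DDIT3 at 16.6 and 178 CPM, but ATF4, which acts upstream of both and is set largely by translation, at 183 and 189 CPM, and MAPK14, the p38 kinase, at 16.3 and 21.5 CPM. At day 7 0 of 5 were past 2-fold, where 0.787% of all genes were higher and 1.77% lower. DDIT3 then stood at 48.3 CPM in shScr and 34.0 in shAPC. ATF3, under 20 CPM with both hairpins at day 7 and so not counted, stood at 15.4 CPM in shScr and 3.37 in shAPC. Its log2 ratio of CPM was -2.19 (-2.52 to -1.87).

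Among the CDKs and cyclins, 1 of 7 was 2-fold higher at day 3 and 0 lower (3.86% and 0.425% of all genes). At day 7 2 of 8 were higher and 1 lower (0.787% and 1.77% of all genes). CDK6, a target of the INK4 proteins, stood at 18.7 and 88.9 CPM at day 3 and at 25.6 and 77 CPM at day 7. CCND2, which encodes cyclin D2, stood at 16.5 and 28.6 CPM, then 18.7 and 45.4 CPM, and CCNB1, the mitotic cyclin, at 36.7 and 17.2 CPM at day 7. RB1 and E2F4, the 2 genes at that level of the RB and E2F list, differed by 0.03 and 0.36 at day 3 and by -0.08 and -0.10 at day 7. Of the genes used as readouts of senescence, 0 of 6 at day 3 and 0 of 5 at day 7 were past 2-fold, beside the same shares of all genes. Their median was 0.15 at day 3 and -0.66 at day 7. IGFBP7 (594 and 337 CPM) and HMGB2 (66.6 and 38.5 CPM) were lowest in shAPC at day 7. CDKN3, a phosphatase of mitotic cells and the 1 gene at that level among other CDK inhibitor loci, stood at 22.1 and 31.9 CPM at day 3 and at 45.8 and 26.1 CPM at day 7.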

How the data were processed

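Single-cell 3' libraries (10x Chromium, polyadenylated RNA) of 4 groups were analysed, 1 library each. The authors deposited filtered matrices of whole-number UMI counts per gene and barcode, aligned with STAR in Cell Ranger to GRCh38: the notes name version 3.0.2, the headers 3.0.2 for shScr and 3.0.0 for shAPC. The labels state reagent kit v2 and a retrovirus, the study's methods V3 and a lentivirus, and the conflict could not be settled. Samples were grouped by the hairpin and day in their labels.

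UMIs were summed per library over kept barcodes (at least 200 genes, 500 UMIs, under 5% of UMIs from 13 mitochondrial genes, which left 28451455 to 39797418 UMIs) and divided by the total to give CPM. No doublet caller was run. Intervals of CPM are exact Poisson, those of shares exact binomial (Clopper-Pearson) and those of ratios exact conditional binomial. A count of 0 allows up to 3 counts, or 0.0754 to 0.105 CPM. Cells were thinned to 2000 UMIs without replacement, and shallower cells (217, 115, 1402 and 391) left out. Phase was scored with scanpy 1.11.5 from the Seurat 5.3.0 lists. TMM (edgeR 4.0.16) and DESeq2 1.42.0 served only as alternative scalings, and no test was run. The ratio and thinning steps were tested on simulated data.

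Named were all 9 members, APC, from each list the 2 highest and 2 lowest genes of at least 20 CPM by log2(CPM + 1) ratio at each day, and the 3 genes most like each member of at least 20 CPM (mean r of at least 0.2). GADD45G, ATF3, DDIT3 and TOP2A within GADD45A-rich cells were examined after seeing values. 1 gene list is not reported here. The members and lists were chosen with earlier results of these data known. Alternatives tried were other scalings, cell weighting, barcode filters, thinning depths and level minima.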

Additional observations from a re-analysis of the deposited data

Results flagged for a closer look

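Of the 9 members, 3 had shAPC/shScr ratios of opposite sign at the 2 days, with counting intervals on either side of 0 on total UMIs and opposite signs under TMM as well. The share of all genes with such a change was not counted. The median gene itself stood at 0.28 at day 3 and -0.10 at day 7, so the number 3 is not read as a result about the members. From day 3 to day 7 the log2 ratio of GADD45A changed by -3.28 (-3.37 to -3.19), that of GADD45B by -2.79 (-2.90 to -2.67) and that of CDKN2C by -0.90 (-1.26 to -0.54). Each day and hairpin had 1 library, so these changes were not tested against the spread between cultures. For CDKN2C the day 3 interval held 0 with TMM (0.19, -0.05 to 0.43), and the day 7 sign turned when each cell was given the same weight.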

How the results depend on the processing

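No paired analysis was possible because the groups compared share fewer than 2 replicate numbers, with 1 library each. All ratios here are log2, shAPC over shScr unless the days are named, and alternatives marked as added were chosen after seeing the data. Of the planned recomputed member ratios 183 stayed within their counting interval, 129 moved out of it with the same sign or an interval that held 0, and 12 reversed, and of the added ones 55 stayed, 17 moved and 0 reversed.

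At day 3 the ratios of CDKN1A, CDKN2A, GADD45A and GADD45B were -0.072, -0.14, 2.31 and 1.70 with TMM, -0.055, -0.12, 2.32 and 1.71 with DESeq2 size factors, 0.20, 0.14, 2.58 and 1.97 with totals free of mitochondrial and ribosomal protein genes, 0.12, 0.16, 1.72 and 1.35 without the 5% of cells with the most UMIs, and 0.20, 0.19, 2.14 and 1.69 with cells thinned to 2000 UMIs. With each cell weighted alike CDKN2A had 0.10, GADD45A 2.05 and GADD45B 1.61. CDKN1A, GADD45A and GADD45B had 0.22, 2.51 and 1.96 over all deposited barcodes, 0.22, 2.51 and 1.97 under 10% mitochondrial UMIs, and in the added alternatives 0.21, 2.43 and 1.95 without cells with an ATF3 UMI and 0.22, 2.47 and 1.91 without barcodes found in more than 1 library.

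At day 7 CDKN1A had 0.33 and CDKN2A -0.56 with totals free of mitochondrial and ribosomal protein genes. CDKN1A, CDKN2A and GADD45A had 0.34, -0.68 and -0.69 over all barcodes, 0.34, -0.68 and -0.69 under 10% mitochondrial UMIs, and 0.49, -0.57 and -0.52 thinned. Without the 5% of cells with the most UMIs CDKN1A had 0.36 and GADD45B -0.50. With each cell weighted alike CDKN2A had -0.68, GADD45A -0.46 and GADD45B -0.94. Without cells with an ATF3 UMI (added) GADD45A had -0.16 and GADD45B -0.54.

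Beyond those with TMM and DESeq2 size factors at day 3, reversals came from cell weighting and thinning. With each cell weighted alike CDKN2C had 0.18 at day 7 and -0.27 for day 7 over day 3 in shScr, and GADD45G -0.93 in shScr and 0.23 in shAPC over time. With thinning GADD45G had -0.86 at day 7 and -0.41 over time in shScr, CDKN2B -0.37 over time in shAPC and CDKN1A -0.0089 over time in shScr. Unthinned, the day 7 difference in the share of cells with a UMI was 16.1 percentage points for GADD45A, 8.81 for GADD45B and 15.7 for CDKN2A, where thinned shares were lower in shAPC. Genes past 2-fold numbered 222 of 5175 and 117 of 4573 at the 2 days, and 42 and 34 from 100 CPM. With no minimum they numbered 528 and 299 among the 33538 genes in the files. Members past 2-fold from 20 CPM were 2 of 4 at day 3 and 0 of 4 at day 7. With no minimum they were 4 of 9 at day 3 (GADD45A, GADD45B, GADD45G and CDKN1B) and 1 of 9 at day 7 (CDKN1C). The cause was not tested for any of these. Depth limits the 5 members under 20 CPM most.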
